A study of Cubamyces sp. BRFM 1775 with 14 samples.

Results

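Transcript levels of Leiotrametes sp. BRFM1775 grown on ground aspen were compared with those on maltose, over all 1052 genes of the deposited table. Leiotrametes is a genus of wood-decaying Polyporales close to Trametes, and GEO lists the strain under Cubamyces. Within the table no gene was chosen by a measured value: every gene was taken, with its level on aspen minus its level on maltose. How the 1052 genes came to be in the table is not given in the sources used here. Shares over all genes are therefore shares of the table. The labels give 3 samples on aspen and 3 on maltose, of 14 samples in the series. The aspen cultures held Wiley-milled aspen wood at 15 g/l in a mineral medium with yeast extract and some maltose, and the maltose cultures held 20 g/l maltose in the same medium without wood. How much maltose the aspen medium held cannot be read from its label, where the figure is garbled. A difference between these groups therefore combines the added wood with an unknown change in free sugar, and the effects of wood and sugar cannot be told apart. All cultures were of the same strain, shaken for 3 days at 30 °C and 120 rpm, and mycelium was frozen together with the solid substrate that was left. The remaining samples, with 2.5 g/l maltose, were grown on pine (3), wheat straw (2) or microcrystalline cellulose (3).

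Aspen is a hardwood, whose cell walls hold cellulose fibres in a matrix of xylan-rich hemicellulose and lignin. White-rot fungi of the Trametes group degrade all of these polymers with secreted enzymes: cellulases and hemicellulases that cut the polysaccharide chains, lytic polysaccharide monooxygenases that oxidise them, and peroxidases and laccases that attack lignin. Filamentous fungi commonly hold such genes at low expression while a readily used sugar such as maltose is plentiful. The table lists protein numbers and pairs none of them with a name or function, so no enzyme family could be followed here and genes are given by number.

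The table holds 1 value per gene and substrate, a mean log2 normalised read count. Whole reads per library were solved from these averages, as set out under the processing. The values required 3 libraries each for aspen and maltose, as labelled, and 794 genes had reads recovered in all 6. These libraries are numbered by size factor, from the lowest, and their numbers do not match the labelled replicates. Size factors, which scale each library to a common depth, were 0.873, 1.16 and 1.29 on aspen and 0.426, 1.00 and 1.61 on maltose. The median gene with recovered reads had 233 to 353 reads per aspen library and 100 to 318 reads per maltose library. Genes with a mean above 12 on the log2 scale were not solved in columns of 3 libraries, so the most abundant transcripts have no spread of their own on aspen or maltose.

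Between aspen and maltose, 46.4% of the genes in the table differed in level. A gene was called when limma's test, fitted over all 13 recovered libraries and adjusted by Benjamini and Hochberg over the 1052 genes, gave an adjusted p below 0.05 with a log2 difference of at least 1. By this rule 344 genes (32.7%) were higher on aspen and 144 (13.7%) were lower. Of these, 116 higher and 41 lower genes lacked recovered reads on aspen, maltose or both. Their spread came from the substrates with recovered reads. The median rise was 3.60 for these 116 genes and 2.15 for the 228 higher genes with reads recovered on both. The median log2 difference was 2.40 among all the genes that were higher and -1.97 among all those that were lower. In mycelial RNA taken as a whole, fewer hyphae that transcribe a gene and less transcript per hypha cannot be told apart. The labels do not say whether replicates came from separate flasks, so p-values reflect library-to-library spread alone, which may be technical.

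**Figure D1:**
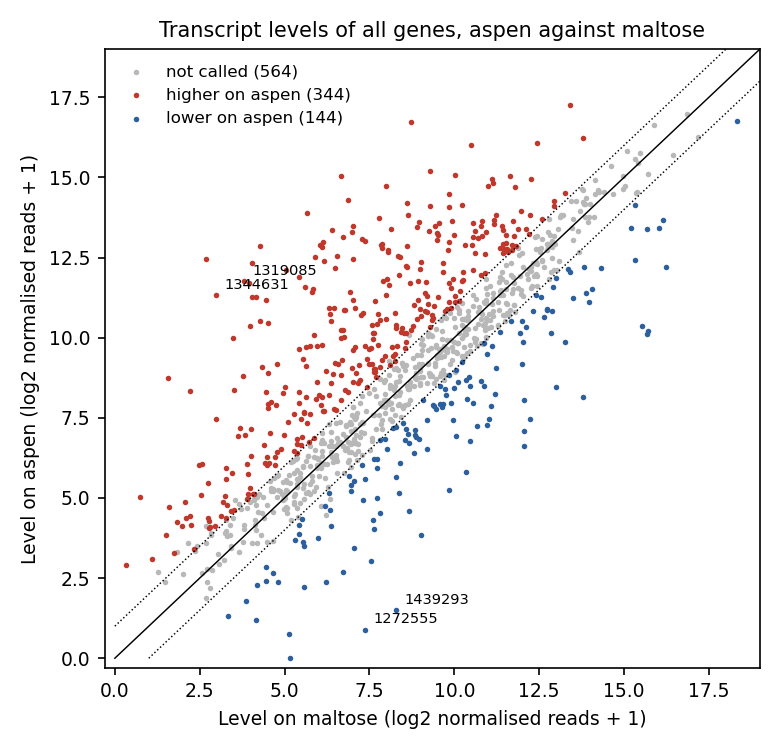
Level of each gene on aspen (vertical axis) against its level on maltose (horizontal axis), both as deposited mean log2 normalised reads, with equality as a solid line and 2-fold differences as dotted lines. The 344 genes higher on aspen reach farther from the solid line than the 144 lower genes, and the 4 numbered genes are those described with single libraries.

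The upper side of the distribution was the longer one. Over all genes the differences had a median of 0.30, quartiles of -0.45 and 1.55, and extremes of -6.77 and 9.77. Of the genes called higher, 134 rose by 1 to 2 log2 units, 130 by 2 to 4, 49 by 4 to 6 and 31 by 6 or more. Of the genes called lower, 74 fell by 1 to 2 log2 units, 51 by 2 to 4, 17 by 4 to 6 and 2 by more than 6. The share of calls that were higher on aspen was 70.5% as deposited. Median centring of the libraries made this 51.8%, with 259 genes higher and 241 lower. When libraries were instead shifted by their median deviation from the gene averages, 299 genes were higher and 186 lower, which is 61.6%. Quantile normalisation covered the 747 genes recovered in every library. It gave 159 higher and 176 lower, a share of 47.5%, where the deposited scaling called 208 and 102 of the same genes. The median difference over genes moved with it, to -0.19 with median centring, 0.076 with the shift and -0.21 after quantile normalisation. How far rises predominate among the calls therefore depends on the scaling. Median centring and quantile normalisation give the libraries a common middle, which pulls rises and falls towards balance. Centring and the shift also took their values from the genes recovered in every library, which hold few of the most abundant. These shares thus cannot decide which scaling is right. Centring and the shift move all genes alike, by less than the difference a call requires. They could therefore lose or add calls, but not turn a call to the opposite direction.

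The single libraries separated the substrates. Over the 794 genes with reads in all 6 libraries, the median absolute log2 difference between a pair of libraries was 0.21 to 0.31 within aspen and 0.21 to 0.22 within maltose. Between an aspen and a maltose library it was 0.85 to 0.94. Every aspen library lay above every maltose library for 343 of these genes (43.2%), and below for 213 (26.8%). In 238 genes the libraries of the substrates overlapped. Of the 228 genes called higher among the 794, 224 had libraries that did not overlap, and so did 102 of the 103 called lower. A further 119 genes lay wholly above and 111 wholly below without being called in that direction, 110 and 105 of them because the difference was less than 2-fold. After median centring, all aspen libraries lay above for 231 genes and below for 340, so the majority turned.

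Gene 1344631 had the largest rise among called genes whose libraries were all recovered and did not overlap. It had 2389, 2437 and 3724 reads in aspen libraries 1 to 3, against 20, 0 and 15 reads in maltose libraries 1 to 3. The aspen libraries lay close together, while the maltose libraries were all low and spread widely. Its level was 11.32 on aspen (SD 0.25, n = 3) and 2.98 on maltose (SD 2.81, n = 3), a log2 difference of 8.33 (SE 1.02, limma adjusted p = 3.4e-05). This SE takes the spread as equal on all substrates. With only the aspen and maltose libraries in the fit the SE was 1.25 (limma adjusted p = 0.000888). Without maltose library 1 the difference was 9.63, and without maltose library 2, which had no read of it, 6.84. With 32 normalised reads added it was 5.78.

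Gene 1319085 came next. Its reads numbered 2501, 5318 and 4216 in the aspen libraries and 59, 2 and 9 in the maltose libraries. Maltose library 1 was the highest of its group, above the others even before its smaller depth is taken into account. The level was 11.77 on aspen (SD 0.35, n = 3) and 3.81 on maltose (SD 2.93, n = 3), a difference of 7.96 (SE 1.06, limma adjusted p = 6.23e-05). Leaving out maltose library 1 gave 9.62, leaving out library 2 gave 6.85, and adding 32 normalised reads gave 5.88. Both genes were also high on the other plant materials and on cellulose. Gene 1344631 had levels of 9.37 on pine, 11.22 on wheat straw and 11.50 on cellulose, and gene 1319085 had 10.52, 11.62 and 13.38.

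Gene 1439293 showed the largest fall. It had exactly 2 reads in each aspen library, against 174, 259 and 445 reads in the maltose libraries. All aspen libraries were near the detection limit and none of the maltose libraries was. Its level was 1.51 on aspen (SD 0.19, n = 3) and 8.27 on maltose (SD 0.35, n = 3), a difference of -6.77 (SE 0.37, limma adjusted p = 1.42e-07). With so few reads the size depends on the constant added before the log, and it was -3.33 with 32 normalised reads added. The gene was also low on pine, at 1.92, but stood at 6.71 on wheat straw and 8.10 on cellulose.

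Gene 1272555 had 0, 3 and 1 reads in the aspen libraries and 83, 156 and 234 reads in the maltose libraries. The maltose libraries were even once scaled for depth, and aspen library 1 held no read. The level was 0.89 on aspen (SD 0.92, n = 3) and 7.37 on maltose (SD 0.22, n = 3), a difference of -6.48 (SE 0.70, limma adjusted p = 1.21e-05). It was -4.25 with 8 normalised reads added and -2.57 with 32. Aspen gave the lowest of its 5 levels, with 3.43 on pine, 2.63 on wheat straw and 4.30 on cellulose.

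**Figure D2:**
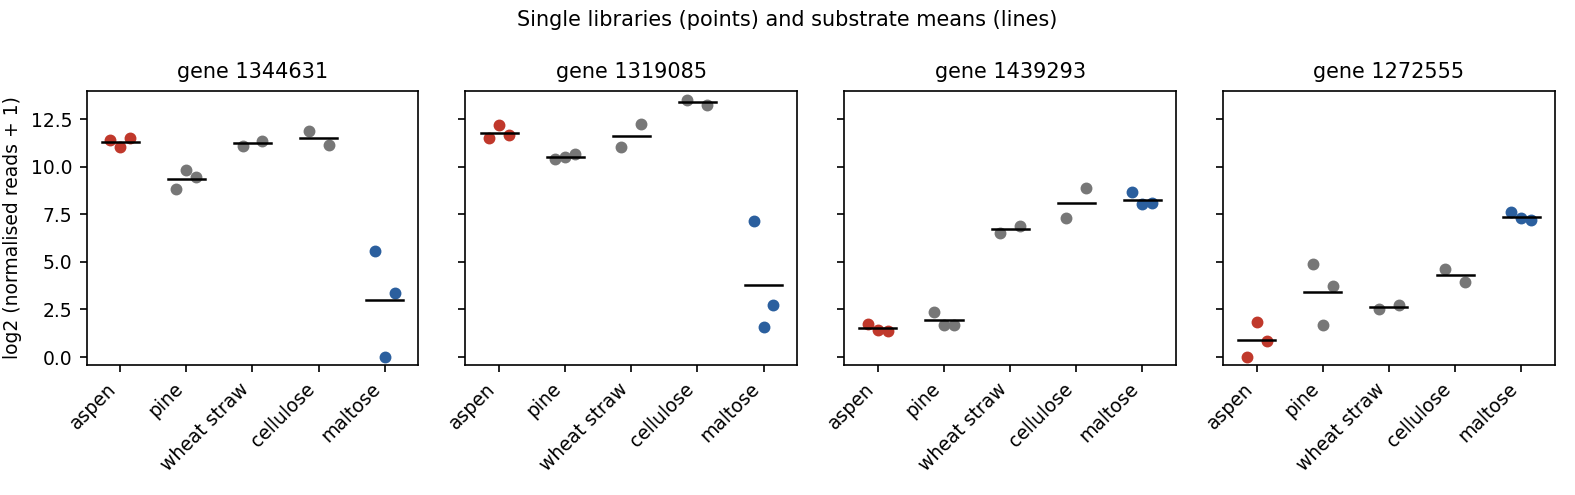
log2 normalised reads + 1 of 4 genes (vertical axis) in every recovered library of the 5 substrates (points), with the substrate mean as a line. Genes 1344631 and 1319085 are high on every substrate but maltose, with scattered maltose libraries, gene 1439293 is low on both woods only, and gene 1272555 is lowest on aspen and highest on maltose.

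Some genes had few reads on one side. Picking genes by low reads on 1 substrate favours differences away from it, so the counts that follow are a description, to be set beside 32.7% higher and 13.7% lower over all genes. Of the 794 genes, 28 had at most 10 reads in each maltose library, and 17 of these were called higher on aspen and 0 lower. Only 1 of the 28 had over 100 reads in each aspen library, and 4 also had at most 10 reads in each aspen library. In the opposite direction, 17 genes had at most 10 reads in each aspen library, of which 12 were called lower and 0 higher. Among these 17, 1 gene had over 100 reads in each maltose library. These are raw reads, so the limit of 10 is stricter in maltose library 3 than in the shallower library 1.

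To see how calls varied with expression, genes were divided into 4 classes of 263 by their mean level on cellulose, wheat straw and pine. These columns do not enter the difference, but they are not independent of it. Genes called higher on aspen had median levels of 10.53 on pine and 10.24 on wheat straw, against 7.30 on maltose. Such genes tend to fall in higher classes, so the classes cannot show whether calls depend on expression. In the class with the lowest levels, from 1.72 to 6.28, 70 genes were higher on aspen and 37 lower. The next classes had 73 higher and 48 lower, then 89 higher and 32 lower. In the class with the highest levels, from 11.54 to 17.23, 112 genes were higher and 27 lower. The called share was 40.7% in the lowest class, 46% in both middle classes and 52.9% in the highest, against 46.4% over all genes. The median difference was 0.34, 0.07, 0.24 and 0.66 from the lowest class to the highest, so it was smallest in the second class. In the highest class only 46 of 263 genes had reads recovered in all 6 libraries, of which 19 were called higher and 0 lower. For the other genes of that class the spread came from the remaining substrates. Among genes with recovered reads, the lower classes had 70 higher and 37 lower of 263, 70 and 47 of 259, and 69 and 19 of 226. With median centring the classes had 42 higher and 55 lower, 55 and 73, 72 and 67, and 90 and 46, from the lowest to the highest. The majority then turned in the lowest and the second class, and the third class held 139 calls against 136 in the highest, so the larger called share of the highest class did not hold under that scaling.

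**Figure D3:**
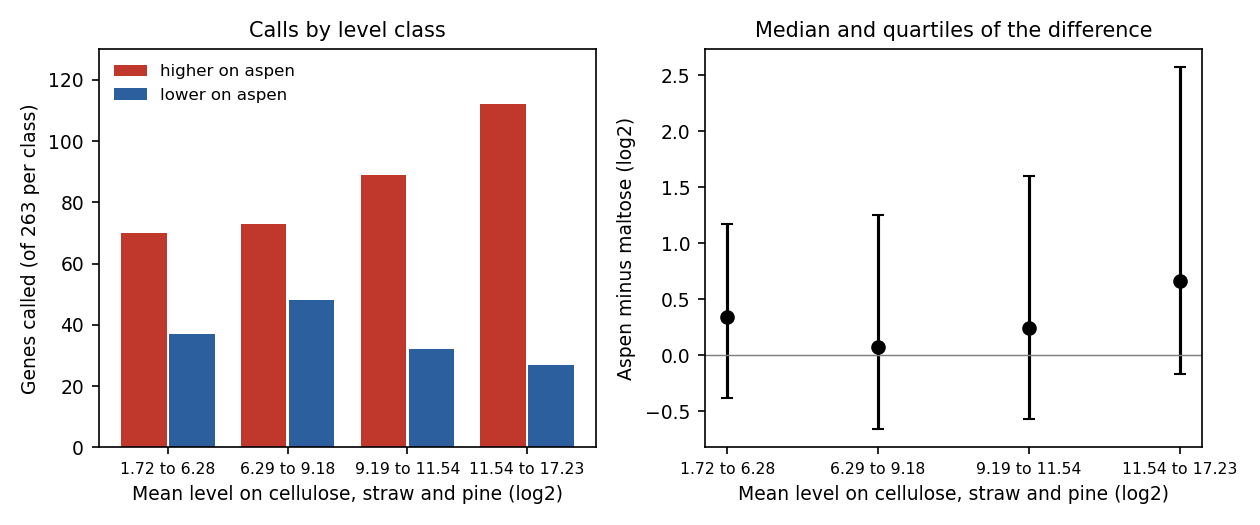
Left, number of genes called higher or lower on aspen in each of 4 level classes of 263 genes, by mean level on cellulose, wheat straw and pine. Right, median and quartiles of the log2 difference, aspen minus maltose, in each class, where the highest class has the largest median, 0.66.

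The most abundant transcripts were only partly exchanged. The 50 most abundant genes on aspen had levels between 14.16 and 17.25, and 29 of them were also among the 50 most abundant on maltose. Of the aspen 50, 20 were called higher on aspen, 1 lower and 29 were not called, with differences between -1.58 and 8.36. Of the maltose 50, 17 were called lower on aspen, 1 higher and 32 were not called, with differences between -5.62 and 2.43. Choosing genes by their level on 1 substrate favours differences in its direction, so these counts are a description, beside 32.7% higher and 13.7% lower over all genes. None of these genes had reads recovered in all 6 libraries.

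Not being called did not mean being unchanged. Of 564 genes not called, 160 passed the p threshold with a difference below 2-fold, and 21 differed at least 2-fold without passing it. In 280 the 95% confidence interval of the difference lay within 1 log2 unit of 0, so that a 2-fold change lay outside it. In the other 284 the interval reached 1 or -1.

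The genes called higher on aspen were also high on the other plant materials. Their median level was 10.55 on aspen, 10.53 on pine, 10.24 on wheat straw, 8.86 on cellulose and 7.30 on maltose. Over all 1052 genes the medians were 9.13, 9.30, 9.20, 8.92 and 8.30 in the same order. For the genes called lower on aspen the median level was 7.43 on aspen, 7.82 on pine, 8.22 on wheat straw, 9.57 on cellulose and 9.70 on maltose. Each list thus lay nearer to its maltose level on cellulose than on any plant material. Differences of other substrates from maltose share the maltose libraries with the aspen comparison, so these levels are side by side and carry no test. Among the 344 higher genes the highest of the 5 levels was on pine for 140, on aspen for 125, on cellulose for 50 and on wheat straw for 29. Over all 1052 genes it was on pine for 353, on aspen for 208, on cellulose for 226 and on wheat straw for 92. Among the 144 lower genes the lowest level was on aspen for 78, on pine for 53 and on wheat straw for 13, and over all genes for 195, 174 and 114. Both lists were chosen by their aspen level, which raises the aspen counts.

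**Figure D4:**
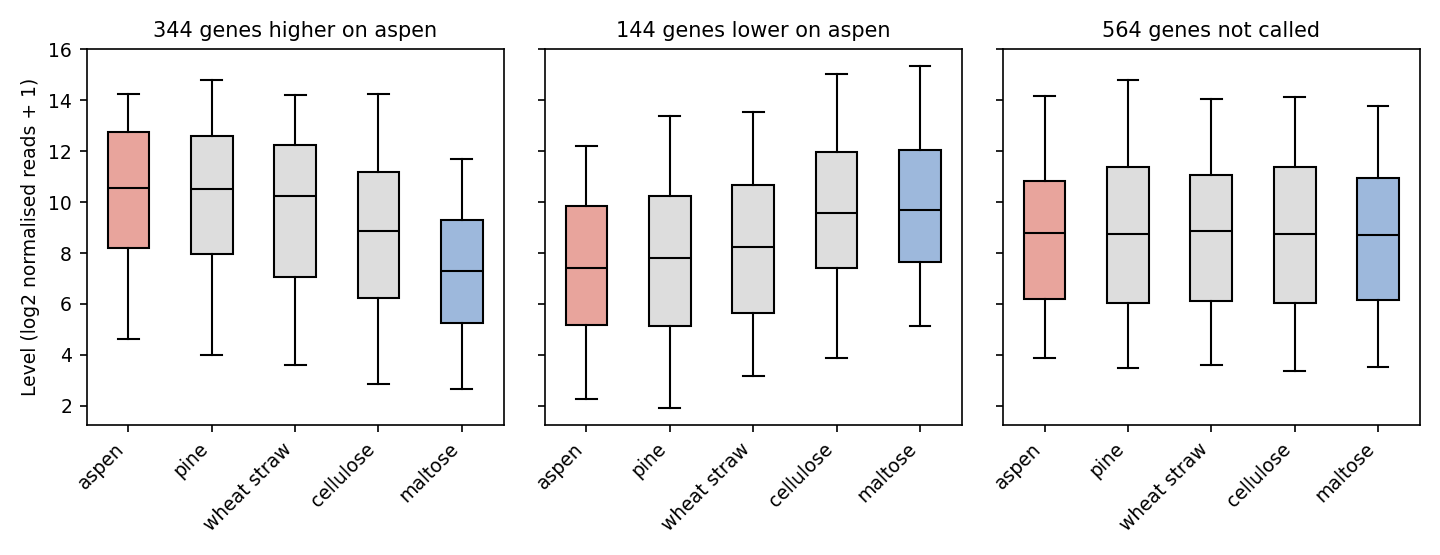
Levels (log2 normalised reads + 1) on the 5 substrates of the genes called higher on aspen (344), called lower (144) or not called (564) against maltose. Boxes show quartiles and median and whiskers the 5th and 95th percentiles; medians of the higher genes are 10.55 on aspen and 7.30 on maltose, and those of the lower genes 7.43 and 9.70.

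Where the aspen response differs from that to another substrate was tested directly, since the difference of the differences from maltose is aspen minus that substrate. The other substrates had 2.5 g/l maltose and the aspen medium an unknown amount. Effects of substrate and of free sugar therefore cannot be told apart in these comparisons either. The median absolute log2 difference over all genes was 0.52 from wheat straw, 0.66 from pine, 0.89 from cellulose and 0.94 from maltose. Wheat straw, a grass, was thus closer to aspen by this measure than the other wood was. The order of wheat straw, pine, cellulose and maltose held with median centring (0.52, 0.66, 0.91 and 0.97) and after quantile normalisation (0.50, 0.54, 0.75 and 0.92). Cellulose and maltose changed places with voom weights on the genes recovered in every library, at 0.90 and 0.86. They also did so on genes with reads recovered on both substrates compared, at 0.89 and 0.87. In both settings wheat straw stayed the closest to aspen and pine the next.

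Against pine, 69 genes (6.56%) were higher on aspen and 175 (16.6%) lower, 23.2% in all. Higher genes made up 28.3% of these calls. On genes with reads recovered on both woods, 55 were higher and 81 lower, a share of 40.4%. On the genes recovered in every library, the deposited scaling gave 56 higher and 80 lower, and quantile normalisation 49 and 76. Of genes called on aspen against both maltose and pine, gene 1327319 had the largest excess over pine. It had 948, 720 and 1104 reads in the aspen libraries and 225, 53 and 22 in the pine libraries. Pine library 1 stood well above the other pine libraries. The difference from pine was 3.41 (SE 0.75, limma adjusted p = 0.00493). Its level was 9.70 on aspen and 7.08 on maltose, and it was between 5.04 and 6.30 on the other substrates, so aspen stood apart as the highest. Gene 302323 had 413, 272 and 498 reads on aspen, against 62, 27 and 23 on pine, a difference of 3.07 (SE 0.50, limma adjusted p = 0.00112). This gene was at 8.46 on aspen and 7.96 on wheat straw but at 5.01 on maltose.

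In the opposite direction, gene 1256766 had 19, 26 and 20 reads in the aspen libraries and 88, 108 and 109 in the pine libraries. The libraries of both woods were even. The difference was -2.57 (SE 0.32, limma adjusted p = 0.000346), and -1.57 with 32 normalised reads added. The gene was nevertheless higher on aspen than on maltose, at 4.37 against 2.73. Its maltose libraries held only 3, 3 and 13 reads, so the size of that rise depends on the constant added before the log. Gene 1318101 had 372, 453 and 526 reads on aspen and 3439, 1622 and 1166 on pine, a difference of -2.46 (SE 0.41, limma adjusted p = 0.00128). It too was higher on aspen than on maltose, at 8.68 against 7.22.

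Against wheat straw, 103 genes (9.79%) were higher on aspen and 64 (6.08%) lower, 15.9% in all. With median centring 77 were higher and 122 lower, with the shift 89 and 94, so which direction held the majority changed with the scaling. With either wheat straw library left out, 1 remained and was assumed to vary like the others, so calls from those fits are not compared. The median difference over all genes was 0.0517 without straw library 1 and 0.0105 without straw library 2, against 0.0335 with both. Gene 1327319 again had the largest excess, 4.67 (SE 0.83, limma adjusted p = 0.00253), with 40 and 45 reads in the straw libraries. Gene 1334166 had 273, 451 and 297 reads on aspen and 40 and 29 on wheat straw, a difference of 3.52 (SE 0.58, limma adjusted p = 0.00173). It was lower on aspen than on maltose, at 8.25 against 11.20, so its fall from the maltose level was smaller on aspen than on straw. Gene 1375213 had 5, 6 and 3 reads on aspen and 392 and 379 on wheat straw, a difference of -5.81 (SE 0.43, limma adjusted p = 3.27e-05), or -3.14 with 32 normalised reads added. Gene 1439293, the gene with 2 reads in each aspen library, was lower than on wheat straw by a difference of -5.20 (SE 0.42, limma adjusted p = 3.27e-05), or -2.0 with 32 reads added.

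Against cellulose, 256 genes (24.3%) were higher on aspen and 176 (16.7%) lower. In all, 41.1% of genes were called. Higher genes made up 59.3% of these calls as deposited, but 46.9% (203 against 230) once libraries were median-centred. Gene 1410238 had 296, 297 and 487 reads on aspen, 2 and 6 on cellulose, and 2, 2 and 8 on maltose. The difference from cellulose was 6.26 (SE 0.44, limma adjusted p = 1.55e-06), or 3.31 with 32 reads added. Gene 1273914 had 459, 439 and 574 reads on aspen and 6 and 15 on cellulose, a difference of 5.55 (SE 0.69, limma adjusted p = 6.81e-05), or 3.54 with 32 reads added. Gene 1375213 was at 2.37 on aspen and 10.43 on cellulose, a difference of -8.06 (SE 0.43, limma adjusted p = 4.05e-07), or -5.28 with 32 reads added. Its maltose level of 6.21 lay between these. Gene 1439293 differed from cellulose by -6.59 (SE 0.42, limma adjusted p = 7.03e-07), or -3.19 with 32 reads added.

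The libraries were not equally even for all genes. The median SD between libraries was 0.23 on aspen and 0.19 on maltose over the 794 genes. For the genes called higher it was 0.24 on aspen and 0.27 on maltose, and 23 of the 228 had an SD above 1 on maltose, against 1 of the 228 on aspen. Of 32 genes with recovered reads and a rise of 16-fold or more, 25 peaked in library 1, the shallowest of the maltose libraries, at a median of 0.51 above the mean of the other maltose libraries. Maltose libraries 2 and 3 stood at -0.43 and -0.33 for these genes by the same measure. Over all 794 genes library 1 was the highest for 305, at a median of 0.03. Without this library the median rise of the 32 genes was 5.57 in place of 4.93, while the median rise of the 228 genes was 2.12 in place of 2.15. The part of depth in this pattern was not tested.

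**Figure D5:**
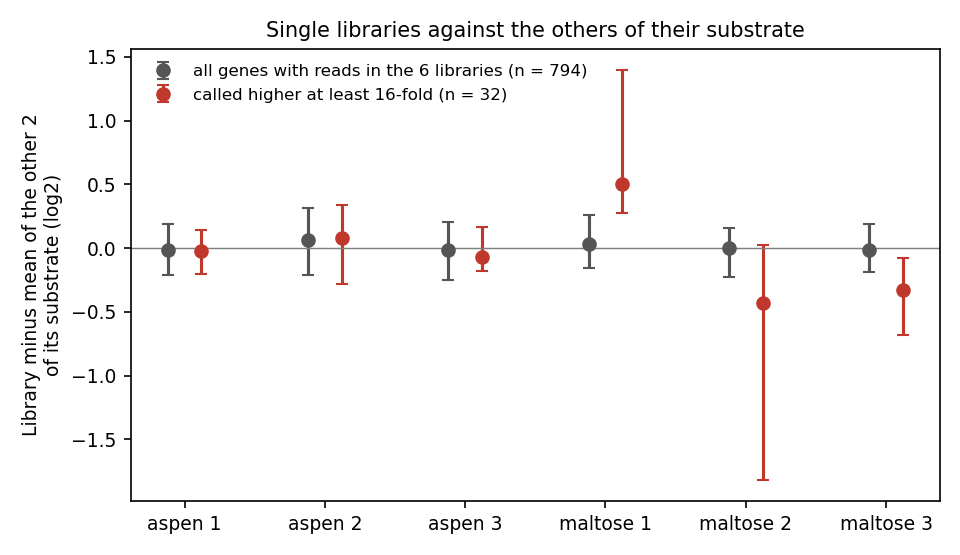
Median and quartiles of the log2 difference between each library and the mean of the other 2 of its substrate (vertical axis), for all 794 genes with reads in the 6 libraries and for the 32 that rose at least 16-fold on aspen. The aspen libraries sit near 0 for both lists, while for the strongly raised genes maltose library 1 sits at 0.51, library 2 at -0.43 and library 3 at -0.33.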

How the data were processed

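Polyadenylated RNA of mycelium was sequenced as paired reads, per the labels' protocols. The authors deposited 1 table of normalised log2 read counts, with 1 column per substrate, per the file headers. TopHat2, HTSeq and DESeq (version 1.5) are named in the submitters' processing notes. For the genome build and the choice of the 1052 genes, nothing is given in the sources used here.

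Each deposited log2 value was solved as an average, over the libraries of a substrate, of log2(1 + reads × scale). Scales were found on the 16 lowest values of a column, and with them 60 of the next 60 values came out as whole reads within a relative tolerance of 1e-09, against 0 of 60 with scales moved 1%. A gene's reads were kept if a single combination of whole numbers gave its value. They were searched within a 256-fold range per library for values below 10 and a 16-fold range above, and not attempted above 12 in columns of 3 libraries. This used 13 libraries: the cellulose column needed 2, although 3 samples are labelled. Reads of libraries of 1 substrate differed by more than sampling noise (chi-square over degrees of freedom, 12.2 or more on aspen and maltose).

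The test was limma 3.58.1 in R 4.3.3, with a moderated spread that follows the level. Each gene had 1 spread over all substrates, taken as equal on each of them. Where reads were not recovered for a gene, its deposited mean was kept and its spread came from its other substrates. With 1 added before the log, changes of genes with few reads are understated. Both scripts were tested on simulated data. Named genes are the 2 that rose most and the 2 that fell most among called genes with recovered, non-overlapping libraries, and for comparisons with other substrates they were also called against maltose. The comparison, rules and lists were chosen with earlier results of these data known. Python 3.11.15, NumPy 2.4.6 and numba 0.67.0 were used for the recovery.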

Additional observations from a re-analysis of the deposited data

How the results depend on the processing

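The 16 named differences, in 12 genes, stayed called under the alternatives listed here. These were other scalings, 8 or 32 normalised reads added, voom weights, no trend and fewer libraries in the fit. Each aspen, maltose or pine library of a comparison was also left out in turn. The named genes were picked for large differences and libraries that do not overlap, so their staying called says little about other genes. For aspen minus maltose the higher genes numbered 327 to 335 and the lower genes 135 to 141 when 1 library was left out, and the median difference 0.29 to 0.32. Genes without recovered reads kept their deposited mean in these fits. Fewer genes were tested on genes recovered on both substrates, which gave 227 higher calls, and with voom weights, which gave 206. The main fit called 228 and 208 of the same genes higher. Quantile normalisation gave 159 where the deposited scaling called 208 of the same genes higher. Centring on the median gave 241 lower calls, and 231 genes with every aspen library above and 340 with every aspen library below every maltose library. It turned the median difference to -0.19, quantile normalisation turned it to -0.21, and the shift by the median difference gave 0.076; the cause was not tested. For aspen minus pine, the lower genes numbered 76 after quantile normalisation, 81 on recovered genes and 77 with voom. The main fit called 80, 83 and 80 of the same genes lower. The genes higher than on pine numbered 44 with 32 reads added. For aspen minus wheat straw, the lower genes numbered 122 with centring. The higher ones numbered 83 to 88 with 1 aspen library left out. With either straw library left out, the fit printed 67 higher genes. That count rests on 1 straw library with an assumed spread, so it is not compared with the others. For aspen minus cellulose, the higher genes numbered 140 after quantile normalisation and 169 with voom. The main fit called 171 of the same genes higher. No paired analysis was possible because the recovered libraries carry no replicate numbers of the labels. Depth limits the sizes of genes with a few reads on 1 substrate. Transcripts above a level of 12 have no spread of their own in columns of 3 libraries.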
